A study of Mus musculus with 6 samples.

Results

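The genes that write, copy and remove DNA methylation were examined in mouse embryonic stem cells given an antisense oligonucleotide (ASO) against LINE1, the most abundant family of mouse retrotransposons. The genes were chosen by name from the count table: the methyltransferase genes Dnmt1, Dnmt3a and Dnmt3b, their cofactors Dnmt3l and Uhrf1, and the dioxygenase genes Tet1, Tet2 and Tet3. They are 8 of the 19467 genes in the count table, and all 8 passed the filter on low counts together with 14725 genes in all. The cells were E14Tg2A, a mouse embryonic stem cell line, grown in 15% serum with 2000 U/ml of leukaemia inhibitory factor. Both arms were nucleofected with 5 nmol of an ASO carrying the red dye Lissamine, one labelled RC and treated here as the control, the other directed at LINE1. Cells carrying the dye were collected by flow cytometry at 48 h, 300000 per sample, and directional mRNA libraries were made from 1 ug of their RNA, 3 in each arm. No cells without an ASO were included, both arms went through electroporation and sorting, and a single cell line was used.

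Methylation of cytosine in CpG pairs is kept through cell division because Uhrf1 recognises hemimethylated DNA behind the replication fork and brings Dnmt1 to it. New methylation is laid down by Dnmt3a and Dnmt3b, and Dnmt3l, which has no catalytic activity of its own, binds and stimulates both. The Tet enzymes oxidise methylcytosine, which leads to its loss through dilution or base excision repair. Embryonic stem cells in serum are known to express both sets of enzymes at once, with Tet1 and Tet2 as the main dioxygenases, whereas Tet3 is best known from the oocyte and zygote. Methylation is one of the systems that keep retrotransposons silent.

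The libraries held 19954026 to 31704616 gene-assigned reads. The pluripotency genes listed as markers of embryonic stem cells were all present: 12 of 12 had reads in every library, with a summed level of 6158 to 6415 CPM under the control ASO and 4727 to 5329 CPM under the LINE1 ASO. CPM is the read count scaled to library size after TMM, a normalization that equalises the bulk of genes. All 12 of these markers had a log2 fold change below 0, with a median of -0.27. Pou5f1, which encodes the core pluripotency factor Oct4, was the only 1 to pass, at 0.779 of control (edgeR, Benjamini-Hochberg adjusted p = 0.0355). Of its 50-base sequences 15.9% are shared with other annotated genes. Of the 12 markers 6 had an unadjusted p under 0.05 in edgeR, and 2 were lower by DESeq2 and 9 with the replicate block described below. Over all genes tested the median log2 fold change was 0.01, and 33.7% passed with the block in either direction. For genes at least as abundant as Tet2 these values were -0.12 and 56.2%. The 9 measured markers of 2-cell-like cells, the rare cells in such cultures that resemble the 2-cell embryo, summed to 8.36 to 10.9 CPM under the control ASO and 95.8 to 247 CPM under the LINE1 ASO. The 8 that could be tested all rose, among them Zscan4c by a log2 fold change of 4.03 and Zscan4d by 4.33, near-identical genes that share 85.5% and 49.6% of their 50-base sequences with others. Summed primitive endoderm markers were at 77.9 to 83.2 CPM against 52.9 to 60.8 CPM, but of the 6 tested 4 had a log2 fold change above 0, 1 rose and 1 fell, and the median was 0.30. The sums of primed epiblast markers (119 to 160 against 133 to 160 CPM), trophectoderm (261 to 302 against 275 to 322 CPM) and fibroblast markers (46.9 to 73.3 against 40.9 to 61.8 CPM) overlapped. All 6 tested trophectoderm markers had a log2 fold change above 0, with a median of 0.37, and although 0 passed in edgeR, 2 had an unadjusted p under 0.05, 1 passed by DESeq2 and 4 with the replicate block described below. The part of these other cell types in the results below was not tested. Reads of the 6 L1Md repeats, the targeted family, stood at 7894, 3933 and 7784 CPM in control replicates 1, 2 and 3 and at 7223, 3277 and 6588 CPM in the LINE1 ASO replicates, so the arms overlapped (log2 ratio -0.21, two-sided exact permutation p = 0.5, where 0.1 is the smallest possible). Within replicate numbers the LINE1 ASO library was lower in 3 of 3 pairs (two-sided exact paired permutation p = 0.25, the smallest possible), and without LINE1 ASO replicate 2 the log2 ratio was 0.15. These values are scaled to gene reads. Scaled to the total of repeat reads, the log2 ratio of the arms was -0.04 (two-sided exact permutation p = 0.8). Replicate 2 of both arms stood apart from the other libraries on the second principal component, which held 26.1% of the variance. The labels do not say that replicates were separate cultures, and the p-values therefore reflect variation among these libraries, which may be technical.

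None of the 8 genes passed the comparison of the arms. With edgeR (quasi-likelihood F test, Benjamini-Hochberg adjustment over all 14725 genes) 0 of 8 had an adjusted p under 0.05, where 6.11% of all genes did, 4.93% higher and 1.17% lower under the LINE1 ASO. Of the 1356 genes at least as abundant as Tet2, 6.49% passed. The 899 calls were split into 726 higher and 173 lower. With library totals in place of TMM the calls over all genes were split into 981 higher and 50 lower. At an unadjusted p under 0.05 there were 3 of 8, Dnmt3b, Tet2 and Tet3, against 22.1% of all genes. DESeq2 called 0 of 8, against 9.92% of the genes it tested. The median log2 fold change of the 8 was -0.05, against 0.01 over all genes and -0.12 over those 1356 abundant genes. In bulk RNA, fewer cells expressing a gene and less RNA per cell cannot be told apart.

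The replicate numbers were taken to pair the libraries, and with this pairing some of the 8 genes passed, at a share near the background. With the replicate number as a block in the same edgeR test, 4 of 8 passed after Benjamini-Hochberg adjustment: Dnmt3b, Tet1 and Tet2 were lower and Tet3 was higher. This fit called 33.7% of all genes, 17.6% higher and 16.1% lower, and 56.2% of genes at least as abundant as Tet2, so a share of 4 in 8 is near its background. LINE1 ASO libraries were lower than the control of their own number in all 3 pairs for Dnmt3b, Tet1 and Tet2, and higher in all 3 for Dnmt3a and Tet3. Of all genes 63.3% kept one direction in this way, 32.8% higher and 30.5% lower. The arms did not overlap for 2 of the 8, Tet2 and Tet3, against 28.7% of all genes, 16.8% higher and 11.9% lower. With library totals in place of TMM, a setting added after seeing the data, this held for 1 of the 8, Tet3, against 29.8% of all genes.

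**Figure D1:**
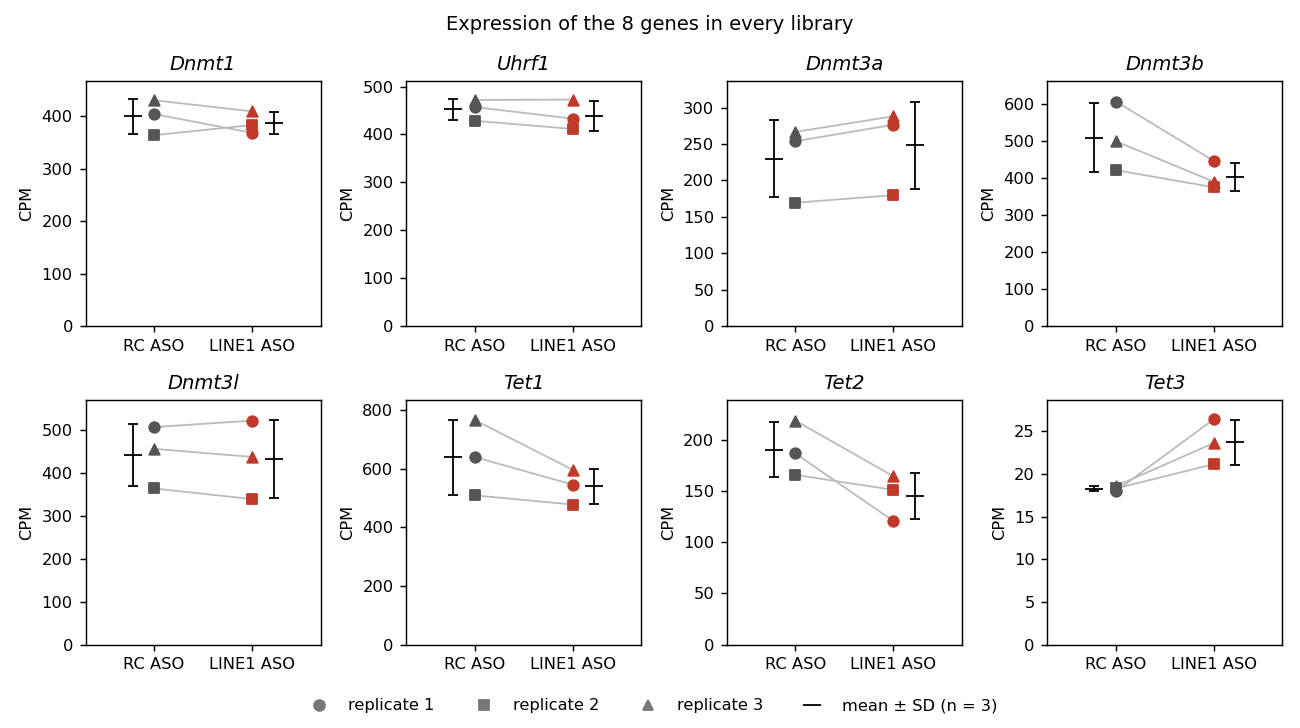
Normalised expression (CPM, linear axis from 0) of the 8 genes in each of the 6 libraries, where grey lines join libraries of the same replicate number, and bars give the mean ± SD of 3 libraries. Dnmt1 lay at 364 to 430 CPM and Uhrf1 at 412 to 473 CPM, Dnmt3a and Dnmt3l were lowest in replicate 2 of both arms, and Tet3 was higher in each LINE1 ASO library than in every control library. For Tet2 the nearest libraries of the arms lie at 164 and 166 CPM and change order with library totals.

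Per length of transcript, Dnmt3l was the most abundant of the 8 and Tet3 the least. Over the 6 libraries Dnmt3l stood at 186 to 287 CPM per kb of its longest coding transcript, and no other member reached this range. Uhrf1 (115 to 132 CPM per kb) and Dnmt3b (86.9 to 141 CPM per kb) came next and overlapped each other, with Uhrf1 higher in 5 of 6 libraries. Dnmt1 followed at 62.0 to 73.3 CPM per kb and Tet1 at 33.2 to 53.3 CPM per kb. Dnmt3a (17.5 to 29.7 CPM per kb) and Tet2 (13.2 to 23.8 CPM per kb) overlapped, and Dnmt3a was the higher in 5 of 6 libraries. Tet3 stood at 1.65 to 2.42 CPM per kb, below every other member in every library. The order was the same when the union of all annotated exons was used as the length, a setting chosen after seeing the data, although the ranges of Dnmt1 and Tet1 then overlapped. Counts were made per gene, so isoforms of a gene are summed. Exons of Dnmt3a, Dnmt3l and Tet2 overlap the opposite-strand genes Dnmt3aos (133 bases), Aire (67 bases) and Gm42567 (43 bases), and whether counting used the strand is not given in the sources used here.

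**Figure D2:**
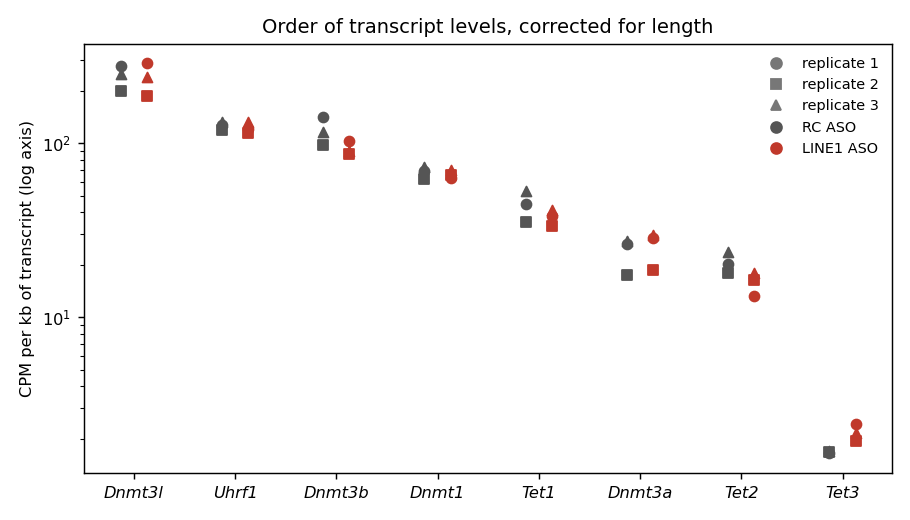
Transcript level per library in CPM per kb of the longest coding transcript (log axis), with genes in falling order of their mean and symbols for replicate numbers. Dnmt3l lies at 186 to 287 and Tet3 at 1.65 to 2.42, and the neighbouring pairs Uhrf1 with Dnmt3b and Dnmt3a with Tet2 have overlapping ranges.

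The genes of maintenance methylation differed least between the libraries. Dnmt1 stood at 404, 364 and 430 CPM in control replicates 1, 2 and 3 and at 368, 383 and 409 CPM in the LINE1 ASO replicates. The arms overlapped, and the LINE1 ASO library was the lower in 2 of 3 pairs. Its log2 fold change was -0.05 ± 0.08 (SE, edgeR, Benjamini-Hochberg adjusted p = 0.790), with a 95% confidence interval of 0.850 to 1.10 for the fold. Uhrf1 stood at 457, 429 and 472 CPM in the control replicates and at 433, 412 and 473 CPM in the LINE1 ASO replicates. Its values overlapped as well, with replicate 3 nearly equal in both arms. The log2 fold change of Uhrf1 was -0.04 ± 0.07 (SE, edgeR, Benjamini-Hochberg adjusted p = 0.785) and the interval of the fold was 0.860 to 1.09. With the replicate block these intervals narrowed to 0.905 to 1.04 for Dnmt1 and 0.915 to 1.03 for Uhrf1. Both log2 fold changes turned to 0.04 when library totals replaced TMM. Reads for Uhrf1 carry some uncertainty, since 18.9% of the 50-base sequences of its transcript also occur in the annotated genes Gm5648 and Gm15953.

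Dnmt1 and Uhrf1 are also the members whose promoters hold the searched form of a motif of the E2F factors, which drive genes of DNA replication. The 2 promoters are shown because these are the maintenance genes, which varied least over the libraries. The letters searched were TTTCGCGC on either strand, its complement being GCGCGAAA, and the match is in capitals. Other forms of the motif were not searched, so other members may hold them. The sequences run from 250 bases before to 50 bases after an annotated start and come from RefSeq on GRCm38.p6, whereas the submitters' processing notes name mm9, and no coordinates were carried over. Of several annotated starts the one with a match is printed, chr9:20952574-20952873 on the minus strand for Dnmt1 and chr17:56304063-56304362 on the plus strand for Uhrf1.
Dnmt1: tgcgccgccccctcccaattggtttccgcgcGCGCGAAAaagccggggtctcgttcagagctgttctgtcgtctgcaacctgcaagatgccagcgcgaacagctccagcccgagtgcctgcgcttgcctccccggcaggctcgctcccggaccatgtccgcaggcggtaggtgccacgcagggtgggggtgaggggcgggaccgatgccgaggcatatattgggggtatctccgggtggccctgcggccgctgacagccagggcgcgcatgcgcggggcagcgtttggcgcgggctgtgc
Uhrf1: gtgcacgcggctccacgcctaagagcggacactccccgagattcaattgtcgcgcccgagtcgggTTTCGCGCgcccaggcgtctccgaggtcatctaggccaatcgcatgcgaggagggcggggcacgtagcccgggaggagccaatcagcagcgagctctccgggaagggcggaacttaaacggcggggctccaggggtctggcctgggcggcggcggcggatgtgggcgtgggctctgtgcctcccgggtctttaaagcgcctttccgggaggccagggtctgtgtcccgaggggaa
The motif occurred in 0.323% of the 32851 promoters of this length. Counted per gene over any annotated start, it occurred in 0.374% of 27025 genes, in 2 of the 8 members and in 4 of 17 genes with a promoter on the list of S-phase and replication genes. Each of the printed windows holds 33 CpG pairs, while the other annotated starts hold 2 and 12 for Dnmt1 and 12 for Uhrf1, against a median of 7 over all promoters.

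Of the genes of new methylation, Dnmt3b was lower in each LINE1 ASO library than in its numbered control. It stood at 608, 422 and 500 CPM in control replicates 1, 2 and 3 and at 447, 376 and 391 CPM in the LINE1 ASO replicates. Control replicate 2 lay below LINE1 ASO replicate 1, so the arms overlapped. The mean was 510 ± 93.3 CPM against 404 ± 37.7 CPM (SD, n = 3 each), a fold of 0.793. The log2 fold change was -0.33 ± 0.13 (SE, edgeR, Benjamini-Hochberg adjusted p = 0.198). With the replicate block it was -0.32 ± 0.05 (SE) and passed (edgeR, Benjamini-Hochberg adjusted p = 0.00103), and within numbers the log2 differences were -0.44, -0.17 and -0.36. It also passed without control replicate 2, at -0.48 (edgeR, Benjamini-Hochberg adjusted p = 0.0338), and missed the threshold in the fits without any other single library. Of its 50-base sequences 11.5% also occur in Dnmt3c, a rodent duplicate of Dnmt3b active in the male germline and not analysed here.

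Dnmt3a and its stimulating cofactor Dnmt3l followed the replicate number more than the arm. Dnmt3a stood at 254, 169 and 266 CPM in the control replicates and at 276, 180 and 288 CPM in the LINE1 ASO replicates. Replicate 2 was the lowest of its arm in both, at 0.41 and 0.43 below the arm mean on the log2 scale. The log2 fold change was 0.11 ± 0.22 (SE, edgeR, Benjamini-Hochberg adjusted p = 0.817), and with the block 0.11 ± 0.04 (SE, edgeR, Benjamini-Hochberg adjusted p = 0.0537). Each LINE1 ASO library was the higher of its pair, by log2 differences of 0.12, 0.09 and 0.11. Without control replicate 2 its log2 fold change was -0.09, and without LINE1 ASO replicate 3 it was -0.03. Dnmt3l stood at 507, 364 and 457 CPM in the control replicates and at 523, 339 and 438 CPM in the LINE1 ASO replicates. Here too replicate 2 was lowest in both arms, and the pairs differed in direction. Its log2 fold change was -0.03 ± 0.17 (SE, edgeR, Benjamini-Hochberg adjusted p = 0.942), with a fold of 0.741 to 1.29 inside the 95% confidence interval and of 0.914 to 1.04 with the block. The direction of Dnmt3l turned to 0.05 with library totals. The summed L1Md repeats were likewise lowest in replicate 2 of both arms, and the part of this library difference in the values of Dnmt3a and Dnmt3l was not tested.

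The 3 Tet genes did not share one direction. Tet1, the most abundant of them, stood at 639, 509 and 766 CPM in control replicates 1, 2 and 3 and at 545, 477 and 596 CPM in the LINE1 ASO replicates. The arms overlapped, with replicate 2 lowest in both. Its log2 fold change was -0.24 ± 0.15 (SE, edgeR, Benjamini-Hochberg adjusted p = 0.398), and -0.23 ± 0.05 with the block (SE, edgeR, Benjamini-Hochberg adjusted p = 0.00547). Leaving out 1 library moved it to -0.11 (without control replicate 3) and -0.40 (without control replicate 2). Tet2, which lacks the DNA-binding CXXC domain of its relatives, stood at 187, 166 and 219 CPM in the control replicates and at 121, 151 and 164 CPM in the LINE1 ASO replicates. Every LINE1 ASO library lay below every control library, but the nearest of them, LINE1 ASO replicate 3 and control replicate 2, stood at 164 and 166 CPM, a gap smaller than the counting error. Scaled by library totals they were at 168 and 164 CPM, so that the arms overlapped. The mean was 190 ± 26.7 CPM against 145 ± 22.4 CPM (SD, n = 3 each), a fold of 0.764. The log2 fold change was -0.39 ± 0.14 (SE, edgeR, Benjamini-Hochberg adjusted p = 0.153) and passed with the block, where it was -0.39 ± 0.08 (SE, edgeR, Benjamini-Hochberg adjusted p = 0.00950).

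Tet3 was the member with the smallest unadjusted p and the only one of the 3 that was higher. Control replicates 1, 2 and 3 held 345, 487 and 520 of its reads, against 857, 656 and 643 for the LINE1 ASO, so that counting error alone was up to 5.38%. These gave 18.0, 18.3 and 18.6 CPM against 26.4, 21.1 and 23.6 CPM. The control libraries lay close together, with a spread smaller than the counting error, and every LINE1 ASO library was above them. The mean was 18.3 ± 0.298 CPM against 23.7 ± 2.64 CPM (SD, n = 3 each), a fold of 1.30 with a 95% confidence interval of 1.09 to 1.54. The log2 fold change was 0.38 ± 0.11 (SE, edgeR, Benjamini-Hochberg adjusted p = 0.0877). With the block it was 0.37 ± 0.08 and passed (SE, edgeR, Benjamini-Hochberg adjusted p = 0.00608). With library totals it was 0.46 and passed (edgeR, Benjamini-Hochberg adjusted p = 0.0451). That scaling moved genes as a whole upward, by 0.08 at the median, with 981 genes called higher and 50 lower. The pass with library totals is therefore not separate evidence that Tet3 was higher. Within numbers 1, 2 and 3 the log2 differences were 0.56, 0.21 and 0.35, largest in number 1, whose LINE1 ASO library also had the highest level of Zscan4c (60.1 CPM, against 23.8 and 32.1 CPM in replicates 2 and 3). The part of 2-cell-like cells in this was not tested.

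**Figure D3:**
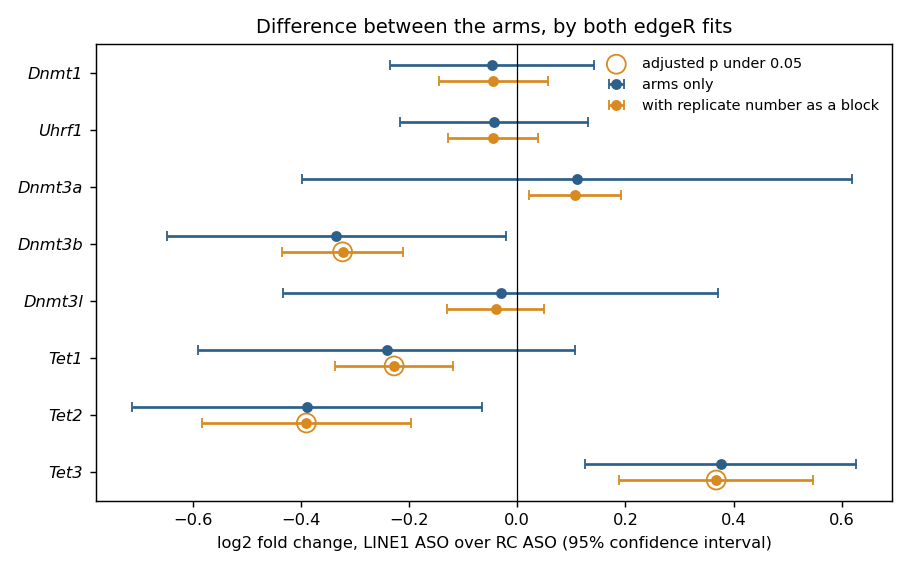
Log2 fold change of each gene (LINE1 ASO over RC ASO) with its 95% confidence interval, from the edgeR fit of the arms alone and from the fit with the replicate number as a block; circles mark an adjusted p under 0.05. No gene is circled in the first fit and 4 are in the second, where Dnmt3b, Tet1 and Tet2 lie at -0.32, -0.23 and -0.39 and Tet3 at 0.37.

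The promoters of Tet2 and Tet3 are shown because these related genes differed in opposite directions, with CpG pairs, where methylation is written and kept, in capitals. The Tet2 window lies at chr3:133544341-133544640 and the Tet3 window at chr6:83441629-83441928 of GRCm38.p6, both on the minus strand and from RefSeq.
Tet2: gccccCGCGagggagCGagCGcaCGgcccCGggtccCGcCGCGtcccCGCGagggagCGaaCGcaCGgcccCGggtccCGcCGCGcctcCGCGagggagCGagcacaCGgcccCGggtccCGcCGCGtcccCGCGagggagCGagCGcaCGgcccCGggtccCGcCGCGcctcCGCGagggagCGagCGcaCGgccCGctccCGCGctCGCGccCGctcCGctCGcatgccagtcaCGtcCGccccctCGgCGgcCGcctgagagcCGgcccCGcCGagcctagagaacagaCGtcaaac
Tet3: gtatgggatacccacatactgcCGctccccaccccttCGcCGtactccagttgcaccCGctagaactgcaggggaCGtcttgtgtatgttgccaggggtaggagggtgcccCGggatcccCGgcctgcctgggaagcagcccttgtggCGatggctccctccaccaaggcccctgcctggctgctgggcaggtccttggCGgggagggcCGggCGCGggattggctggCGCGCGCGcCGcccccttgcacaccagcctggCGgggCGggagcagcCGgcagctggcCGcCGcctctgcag
Tet2 holds 57 CpG pairs in 300 bases and Tet3 holds 22. The window of Dnmt3b (chr2:153649199-153649498, plus strand) holds 30 and that of Tet1 (chr10:62887275-62887574, minus strand) 17. The 3 annotated starts of Dnmt3a on chromosome 12 hold 46, 47 and 18, whereas the 3 annotated starts of Dnmt3l hold 6, 4 and 3. Methylation was not measured in these libraries, so nothing is known here of the state of these promoters.

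Ratios within a library do not depend on its scaling, and they set the family members against each other. The ratio of Dnmt3a to Dnmt3b reads was 0.417, 0.401 and 0.533 in the control replicates and 0.618, 0.478 and 0.737 in the LINE1 ASO replicates. It was higher in the LINE1 ASO library of every number, by 0.57, 0.25 and 0.47 on the log2 scale, although the arms overlapped. The ratio of Tet3 to Tet2 reads was 0.0963, 0.110 and 0.0849 in the control replicates and 0.219, 0.140 and 0.144 in the LINE1 ASO replicates. Here the arms did not overlap, and the means were 0.0972 ± 0.0128 and 0.167 ± 0.0445 (SD, n = 3 each). This follows from Tet2 and Tet3, whose CPM did not overlap in opposite directions, and is not a separate result. Dnmt1 to Uhrf1 was 0.882 ± 0.0314 under the control ASO and 0.882 ± 0.0428 under the LINE1 ASO (SD, n = 3 each). Dnmt3l to the sum of Dnmt3a and Dnmt3b ranged from 0.589 to 0.616 under the control ASO and from 0.611 to 0.723 under the LINE1 ASO. Tet1 to Tet2 was 3.33 ± 0.230 and 3.77 ± 0.689 (SD, n = 3 each), and the arms overlapped for both. These ratios are given as descriptions without a test.

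**Figure D4:**
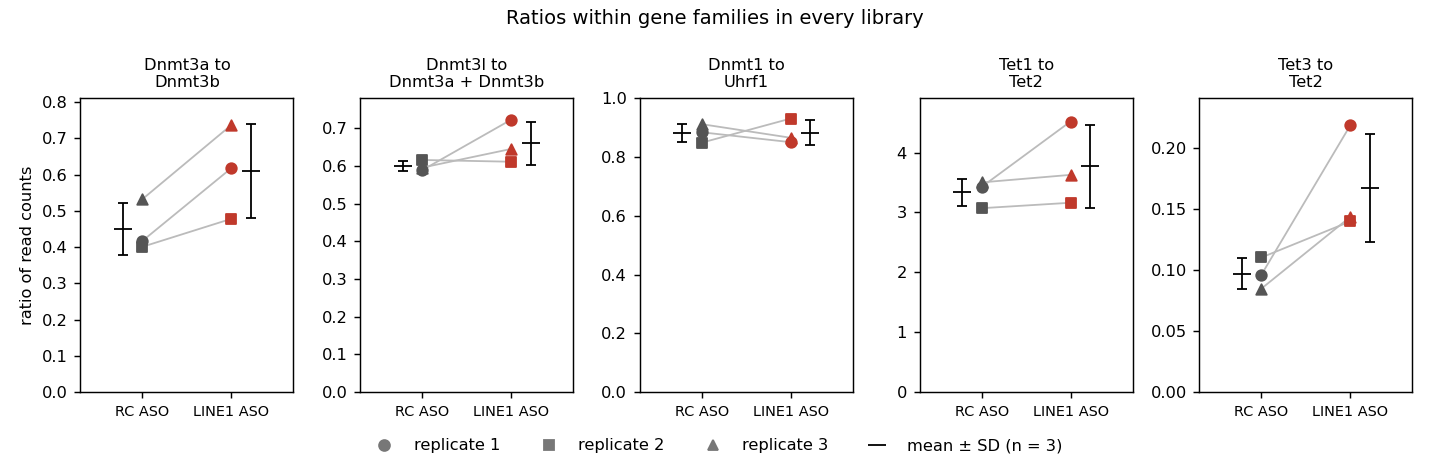
Ratio of read counts between members of a family in each library (linear axes from 0), with lines joining libraries of the same number and bars for the mean ± SD of 3 libraries. Tet3 to Tet2 lies at 0.0849 to 0.110 under the control ASO and 0.140 to 0.219 under the LINE1 ASO, and the ratio of Dnmt1 to Uhrf1 has a mean of 0.882 in both.

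Likeness of pattern over the 6 libraries was not scaled by how much a gene varies, so genes that vary little come out close. The root mean square difference of centred log2 CPM was 0.0499 between Dnmt1 and Uhrf1, the smallest of the 28 pairs and also the pair with the least variation of its own, and 0.448 between Tet2 and Tet3, the largest. Among 8133 other genes whose log2 CPM averaged 4 or more, the nearest to Dnmt1 were the filamin gene Flnc (0.0170) and the tRNA splicing gene Tsen34 (0.0213), and to Uhrf1 the mitochondrial alanyl-tRNA synthetase gene Aars2 (0.0143) and F2rl1 (0.0148). For Dnmt3a they were Pigl (0.0516) and Lpar1 (0.0531), for Dnmt3l Med6 (0.0238) and Fastkd2 (0.0256). Dnmt3b was nearest to Emb (0.0315) and to Lin28a (0.0481), which encodes an RNA-binding pluripotency factor. Tet1 was nearest to Tns3 (0.0518) and Gabarapl2 (0.0547), and Tet2 to Itpk1 (0.0475) and the metallothionein gene Mt2 (0.0510). Tet3 was nearest to Zfp451 (0.0150) and Avpi1 (0.0327), and Zfp451 was the only one of these 16 genes to pass, at a log2 fold change of 0.40 (edgeR, Benjamini-Hochberg adjusted p = 0.0446).

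Genes that work with these enzymes were set out in 7 lists. The background for their calls is 6.11% of all genes in edgeR, 33.7% with the block and 9.92% by DESeq2. Some listed genes, such as Pcna, Hells, Usp7 and Trim28, are more abundant than Tet2. Among genes at least as abundant as Tet2 the background was 6.49%, and 56.2% with the block, at a median log2 fold change of -0.12. Apart from the lists whose median is given below, median log2 fold changes were -0.15 for S-phase genes, -0.03 for regulators, -0.16 for methyl donor genes, 0.02 for readers and -0.16 for repair genes and Tet partners. Of 11 partners of maintenance methylation 0 passed (edgeR, Benjamini-Hochberg adjustment), with 4 at an unadjusted p under 0.05 and 3 lower by DESeq2. Their median log2 fold change was -0.15, and with the block 7 were lower and 1 higher. Hells, a chromatin remodeller needed for methylation of repeats, stood at 479 ± 87.7 against 431 ± 59.1 CPM (SD, n = 3 each). Pcna, the sliding clamp that binds Dnmt1 at the fork, had a log2 fold change of -0.22 and the deubiquitinase gene Usp7 of -0.08, with 31.8% of the 50-base sequences of Pcna shared with a pseudogene. Of 21 S-phase and replication genes 2 fell and 0 rose: Pola1, the catalytic subunit of polymerase alpha, to 0.778 of control, and the clamp loader gene Rfc4 to 0.760, which overlaps the opposite-strand gene Eif4a2 by 194 bases. With the block 12 of the 21 were lower.

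Among 19 regulators of where methylation is placed, 1 fell. Zfp57, the zinc finger protein that keeps methylation at imprinted regions, stood at 340, 308 and 345 CPM in the control replicates and at 218, 240 and 279 CPM in the LINE1 ASO replicates. The arms did not overlap, and the log2 fold change was -0.43 ± 0.10 (SE, edgeR, Benjamini-Hochberg adjusted p = 0.0493). Its corepressor gene Trim28 had a log2 fold change of -0.20 without passing. Dppa3, whose product keeps Uhrf1 off chromatin, was at 12.0 ± 3.04 and 8.14 ± 2.72 CPM (SD, n = 3 each), and Prdm14, a repressor of Dnmt3b in naive cells, at 18.8 ± 1.73 and 16.0 ± 3.41 CPM. Neither passed, and with the block Dppa3 was lower (edgeR, Benjamini-Hochberg adjusted p = 0.00163), with 17.7% of its 50-base sequences shared with other annotated genes. With the block 6 of the 19 were lower and 1 higher.

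Of 17 genes of methyl donor metabolism, 1 fell: Mthfd2, a mitochondrial folate enzyme, to 0.719 of control, a call lost with a filter at 1 CPM (edgeR, Benjamini-Hochberg adjusted p = 0.0554), while DESeq2 gave 3 lower. Mat2a, which makes the methyl donor S-adenosylmethionine, was at 478, 206 and 398 CPM in the control replicates and at 580, 287 and 480 CPM in the LINE1 ASO replicates. It was again lowest in replicate 2 of both arms and higher in every LINE1 ASO library than in its numbered control, with a log2 fold change of 0.32 ± 0.34 that passed with the block (edgeR, Benjamini-Hochberg adjusted p = 0.000507). Without the block its log2 fold change was 0.010 when control replicate 2 was left out, 0.068 if LINE1 ASO replicate 1 was, 0.55 without control replicate 1, and 0.52 when LINE1 ASO replicate 2 was dropped. Its exons overlap the opposite-strand transcript Particl by 508 bases. Ahcy, which removes the product inhibitor of methylation, had a log2 fold change of 0.12, with 77.0% of its 50-base sequences shared with other annotated genes. The block gave 7 lower and 3 higher of the 17. Of 12 methyl-CpG readers 0 passed (edgeR, Benjamini-Hochberg adjustment), with 3 at an unadjusted p under 0.05, 1 higher by DESeq2, and 3 higher with the block.

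Of 22 genes of oxidised base repair and partners of the Tet enzymes, 2 rose and 1 fell. Gadd45g, a stress-inducible gene also linked to demethylation, was at 6.26 ± 1.14 CPM and rose 2.58-fold to 16.1 ± 5.84 CPM (SD, n = 3 per arm). Xrcc1, the scaffold of base excision repair, rose 1.27-fold and Idh3a, a subunit of a mitochondrial isocitrate dehydrogenase, fell to 0.794 of control. Xrcc1 did not pass with RLE factors, without the count filter or with a filter at 1 CPM (edgeR, Benjamini-Hochberg adjusted p = 0.0517, 0.0610 and 0.0504), which left 1 gene of this list higher. Ogt, the glycosyltransferase that binds Tet proteins, went from 269 ± 10.7 to 221 ± 19.6 CPM (SD, n = 3 each) with no overlap of the arms, at a log2 fold change of -0.28 (edgeR, Benjamini-Hochberg adjusted p = 0.0877), and it passed by DESeq2 (adjusted p = 0.0304). The CXXC protein gene Cxxc5 had a log2 fold change of -0.26 without passing. Tdg, the glycosylase that removes oxidised methylcytosine, had only 7 to 22 reads per library, and 66.3% of its sequences are shared with pseudogenes, so its level is uncertain. The block gave 9 lower and 3 higher of the 22. Of the genes named in these lists that missed the threshold without it, Hells, Pcna, Trim28, Ogt and Cxxc5 passed as lower with the block and Ahcy as higher (edgeR, Benjamini-Hochberg adjusted p = 0.00102 to 0.0363).

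A last list held mostly germline genes, many of them known to be silenced by promoter methylation in other cells. Of 22 tested, 4 rose and 0 fell, with a median log2 fold change of 0.36. The 4 were the germ cell surface protein gene Tex101 (3.17-fold), the TFIID subunit gene Taf7l (2.47-fold), the dipeptidase gene Dpep3 (5.07-fold, with only 2 to 11 reads per control library) and the ADP/ATP carrier gene Slc25a31 (2.28-fold), genes that an earlier analysis of these libraries had already shown to be higher, so the list is not independent evidence of its direction. The log2 fold change of Dpep3 was 2.34, and it was 3.14 without control replicate 2 and 1.84, no longer passing, without control replicate 3. The germ cell RNA-binding protein gene Dazl, a standard reporter of lost promoter methylation, stood at 9.53 ± 1.05 against 9.94 ± 1.13 CPM (SD, 3 libraries per arm), and its log2 fold change was 0.06. Tex19.1, another methylation-sensitive germline gene, stood at 87.8, 63.0 and 99.0 CPM in the control replicates and at 179, 95.6 and 151 CPM in the LINE1 ASO replicates. It was higher in every pair, with a log2 fold change of 0.77 ± 0.24 that passed with the block (edgeR, Benjamini-Hochberg adjusted p = 0.000375) and by DESeq2 (adjusted p = 0.0231). With the block 11 of the 22 were higher and 0 lower.

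**Figure D5:**
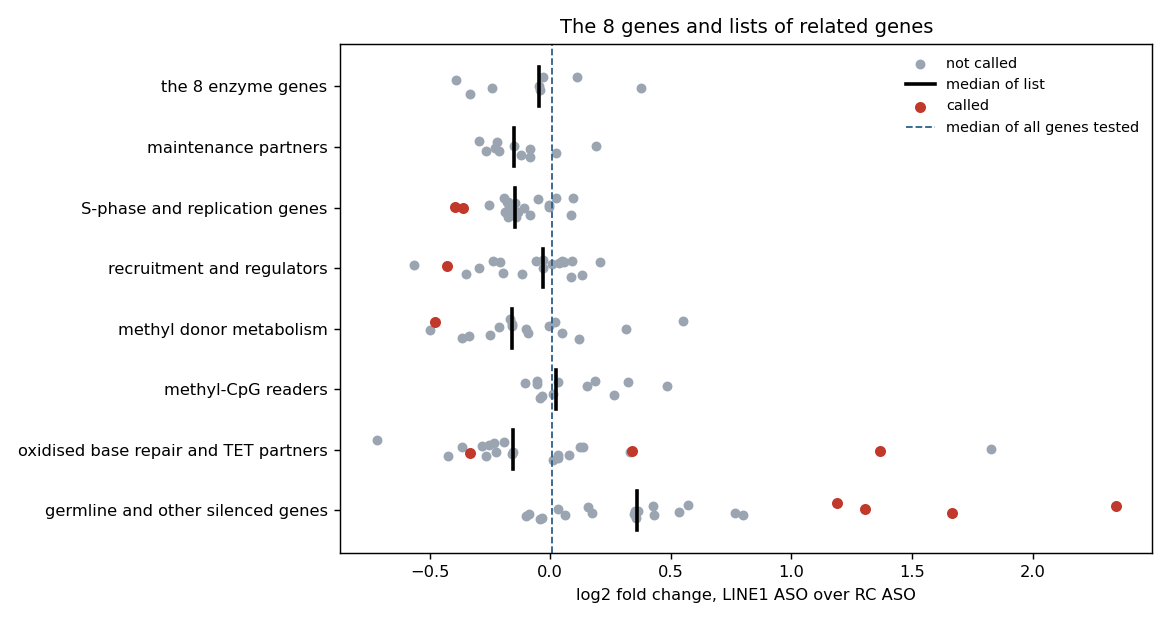
Log2 fold change (LINE1 ASO over RC ASO) of each tested gene in the 8 enzyme genes and the 7 lists of related genes, with black bars for list medians, red points for an adjusted p under 0.05 and a dashed line for the median of all 14725 genes. None of the 8 enzyme genes is red, and the list of germline and other silenced genes has 4 red points and the highest median, 0.36.

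Most calls on related genes were lost when 1 library was left out, other than those of replicate 2, and calls over all genes fell in the same fits. There 1.08% to 2.02% of all genes passed, against 6.11% with all libraries. Without control replicate 2 the share was 10.1%, and without LINE1 ASO replicate 2 it was 7.54%. With library totals Zfp57, Pola1, Rfc4, Mthfd2, Idh3a and Pou5f1 no longer passed (edgeR, Benjamini-Hochberg adjusted p = 0.0502 to 0.1000). Of the 14 called genes named from the lists and as markers (Pou5f1, Zscan4c and Zscan4d), 14 passed when control replicate 2 was dropped, and 12 when LINE1 ASO replicate 2 was, the others being Zfp57 and Xrcc1. Only Zscan4c, Zscan4d and Tex101 passed without control replicate 1 (others at Benjamini-Hochberg adjusted p = 0.0550 to 0.170, edgeR) or control replicate 3 (0.0569 to 0.211). These and Taf7l passed without LINE1 ASO replicate 1, and these, Taf7l and Zfp57 without LINE1 ASO replicate 3.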

How the data were processed

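The deposited values are raw counts: the authors gave whole reads for each gene and each repeat, with a column per library. The submitters' processing notes list TopHat2 (2.0.9) and HTSeq (0.6.1p1), then DESeq2 (1.12.3) in R (3.3.0), on mm9. Nothing used here states the annotation, the strand setting or how multi-mapping reads were treated, so reads of Uhrf1, Dnmt3b and other genes with near-identical copies may be lost or split.

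Counts were analysed in R 4.3.3 with edgeR 4.0.16: filterByExpr (minimum count 10, minimum total 15), TMM, robust quasi-likelihood F tests, and Benjamini-Hochberg adjustment over 14725 genes, with calls at an adjusted p under 0.05. Standard errors are the log2 fold change over the square root of F. The test was checked on simulated counts. The members and lists were chosen with earlier results of these data known. Named genes are the 8 members, up to 4 called genes per list by smallest p, a fixed panel of 14 genes, 3 markers and the 2 nearest genes of each member. Deviations from arm means correlated at 0.436, 0.659 and 0.394 between same-number libraries, each over the limit of 0.1, so numbers were taken to pair the libraries. No label says what a number shares, and 2 pairs of different number reached 0.220 and 0.120. Chi-square per degree of freedom within arms was 9.01 to 37.8, so no library was a duplicate. Lengths and shared 50-base sequences come from GENCODE M21. Other settings tried were RLE factors, library totals, DESeq2 1.42.0, no filter, a filter at 1 CPM, the replicate block and leaving out each library. For the L1Md repeats, the total of repeat reads was also tried.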

Additional observations from a re-analysis of the deposited data

How the results depend on the processing

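Tet2 and Tet3 kept their direction in every alternative, as did Dnmt3b and Tet1. None of the 8 was called with RLE factors (against 6.20% of all genes), without a filter (5.14%) or with a filter at 1 CPM (5.80%). With library totals, genes lower numbered 50, 1 of 8 enzyme genes passed (Tet3, 0.46), and Dnmt1 (0.036), Uhrf1 (0.038) and Dnmt3l (0.052) changed sign, the median of all genes moving by 0.08. DESeq2 called 585 genes lower. With the replicate block, genes higher numbered 2591 and lower 2373, and 4 of 8 passed, against 33.7% of all genes: Dnmt3b (-0.32), Tet1 (-0.23), Tet2 (-0.39) and Tet3 (0.37). Leaving out 1 library gave 158 to 1041 genes higher, 2 to 479 lower, and 0 to 1 of 8 passing, against 1.08% to 10.1% of all genes. Over these fits Dnmt3a ranged from -0.092 to 0.26, Dnmt3b from -0.48 to -0.21, Dnmt3l from -0.21 to 0.082, Dazl from -0.047 to 0.11, Tdg from -0.0067 to 0.49 and the summed L1Md repeats from -0.54 to 0.15. The settings that follow were chosen after seeing the data. Without both libraries numbered 2, genes higher numbered 1810 and lower 1229, and Tdg was at -0.22. Here 2 of 8 passed (Dnmt3b -0.40, Tet3 0.45), against 20.5% of all genes. With the block, leaving out pair 1 gave 1649 genes higher and 1756 lower and 4 of 8 passing, against 23.0% of all genes: Dnmt3b (-0.27), Tet1 (-0.24), Tet2 (-0.28) and Tet3 (0.27). Leaving out pair 2 gave 3095 higher and 2786 lower, or 39.7% of all genes, with Tdg at -0.25. Of the 8, 5 passed: Dnmt3b (-0.40), Tet1 (-0.30), Tet2 (-0.52), Tet3 (0.45) and Dnmt3a (0.12). Leaving out pair 3 gave 1410 higher and 1093 lower and 1 of 8, Dnmt3b (-0.33), against 16.9% of all genes. Block fits on 2 pairs leave very little variation from which to estimate error, so their calls carry little weight. The causes of these changes were not tested. With 3 libraries per arm, differences below about the intervals given were not detectable, and counting error matters most for Tdg and Dpep3.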
